A study of Mus musculus and Rattus norvegicus with 18 samples.

Results

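Cathepsins and the subunits of the vacuolar proton pump (V-ATPase) were followed as RNA in kidney cells given TGF-β with or without narciclasine. Members were the genes of both count tables whose symbol named a cathepsin (Ctsa to Ctsz), a V1 or V0 subunit of the V-ATPase, Atp6ap1, Atp6ap2, Lamp1 or Lamp2. This gave 46 symbols of 28168 in all, with 45 of 22322 mouse genes and 44 of 22050 rat genes. A total of 43 symbols stood in both tables, and no symbol had more than 1 entry. Atp6v0e and Ctso stood only in the mouse table and Atp6v0e1 only in the rat one. Genes were matched by symbol alone. Mouse Atp6v0e and rat Atp6v0e1 may name the same subunit, so these entries do not show that either species lacks it. The matched symbol Atp6v1fnb names a separate gene beside Atp6v1f, not a subunit, and it was kept out of the V-ATPase counts and sums.

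RNA was sequenced from primary tubular epithelial cells of mouse kidney (TECs) and from NRK49F, a single fibroblast line of rat kidney, in 18 libraries. In each cell kind, 3 libraries came from cells given TGF-β1 and narciclasine, 3 from cells given TGF-β1 alone and 3 from control cells in medium with neither. Cells of all groups had been held without serum for 6 h before treatment. Narciclasine, a plant alkaloid that binds the ribosome, was given at 20 nM from 2 h before TGF-β1, and TGF-β1 at 5 ng/ml stayed on for 24 h. No library had narciclasine alone, and cell kind and species cannot be told apart here. The replicates are described as biological, without saying which cultures or animals they came from, so p-values reflect only how far these samples spread, and all NRK49F libraries share 1 line.

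Cathepsins are proteases that break down proteins inside lysosomes. Most are cysteine proteases made as inactive precursors and matured at acid pH. The V-ATPase supplies that acid: its V1 part in the cytosol splits ATP, and its V0 part in the membrane carries protons into the lumen. In proximal tubule cells the endosomes and lysosomes digest proteins taken up from the filtrate, and cathepsins also cleave matrix proteins.

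Libraries held 16652016 to 25192716 counts in TECs and 14695732 to 18463855 in NRK49F. Levels are CPM, counts scaled to library size with TMM factors, and changes are log2 fold changes with standard errors (SE) from edgeR. Tubular epithelial markers summed to 9140 to 9380 CPM in TECs with TGF-β and narciclasine, 8440 to 8860 with TGF-β and 6660 to 6760 in controls, with none of the 8 listed markers at 0. Of these 8, 5 rose and 3 fell with TGF-β against control. Those that fell were Pax8 (114, 76.4 and 238 CPM in the same order of groups), Cdh16 (442, 521 and 706) and Krt19 (212, 183 and 291). In NRK49F, fibroblast markers summed to 17400 to 17900, 35900 to 37700 and 10100 to 11800 CPM in the same order of groups. Of 7 tested there, 4 rose and 2 fell with TGF-β against control. Those that fell were Pdgfra, at 100, 181 and 354 CPM, and Pdgfrb, at 56.6, 78.2 and 122 CPM. The 8 tubular epithelial markers summed to 573 to 626, 669 to 775 and 1200 to 1260 CPM in NRK49F, nearly all of it Krt8, at 599, 707 and 1210 CPM. Krt19 stood at 0.155, 0.35 and 16.7 CPM, and the other 6, Epcam and Cdh1 among them, were under 0.5 CPM in every group. Proximal tubule markers were low in TECs, at 159 to 165, 94.0 to 97.1 and 157 to 161 CPM for 12 genes. Most of this was Lrp2, at 130, 61.1 and 105 CPM. With both agents against control, 1 of 8 tested was higher and 5 were lower, with a median log2 change of -0.81. Of all genes in that comparison, 32.4% were higher and 30.6% lower. With TGF-β alone against control, 0 of the 8 were higher and 4 lower (median -1.01), against 34.1% and 34.9% of all genes. With narciclasine against TGF-β, 2 were higher and 1 lower (median -0.03), against 26.8% and 25.5% of all genes. In NRK49F, replicate 2 stood apart: pairs with it had a chi-square per degree of freedom of 7.47 to 19.8, against 2.36 to 3.30 for the other pairs and 1.83 to 3.66 for all pairs of TECs. Endothelial markers, 5 genes with none at 0, were also present in TECs. They summed to 108 to 113 CPM with TGF-β and narciclasine, 113 to 119 with TGF-β and 101 to 102 in controls, and their part was not tested. In bulk RNA, fewer cells of a type and less RNA per cell cannot be told apart.

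Of the 18 mouse cathepsins, 13 passed the filter on low counts. The 5 others were Ctsg, a serine protease of neutrophils, and Ctsj, Ctsm, Ctsq and Ctsr, members of a family of rodent placenta, with at most 2 counts in a library. Of the 17 rat cathepsins, 8 passed. The other 9 had at most 11 counts in a library, and they included Ctss, Ctsk, Ctse and Ctsz. Of 22 V-ATPase subunits, 18 passed in TECs and 17 in NRK49F. Those that did not pass had at most 9 counts in a library, and in both cell kinds they included Atp6v0d2 and Atp6v1g3, forms known from osteoclasts and from kidney intercalated cells.

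Per kb of exon, Ctsd was the most abundant member in every TEC group. It stood at 453 ± 6.64 CPM per kb with TGF-β and narciclasine, 561 ± 13.5 with TGF-β and 726 ± 6.21 in controls (SD, n = 3). Lamp1 came next with 188, 232 and 209 CPM per kb, and the V1 stalk subunit Atp6v1g1 after it with 147, 158 and 84.0. Ctsl followed in the first of these groups and in the second, at 64.7 ± 1.33 and 119 ± 0.946 CPM per kb, and stood at 50.1 ± 0.949 in controls, behind Atp6v0c and Atp6ap1. These ranks depend on exon length, taken over all annotated transcripts of a gene: 6489 bases for Ctsl and 1135 for Atp6v1g1. In CPM, Ctsl was above Atp6v1g1, at 419.7, 770.4 and 325 against 166.7, 179.4 and 95.3 in the same order of groups. No exon lengths were used for the rat, so levels of different rat genes are not compared.

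With narciclasine added to TGF-β, the cathepsins of TECs fell. Among the 13 tested, 12 were lower than with TGF-β alone and 0 higher, with a median log2 change of -0.52 and a range of -2.53 to -0.24. Of all 13244 genes tested, 52.3% were called, 26.8% upward and 25.5% downward, and the median change was 0.00. The V-ATPase moved less: 9 of 18 tested subunits were lower and 1 was higher, with a median of -0.15 and a range of -0.68 to 0.13. A called log2 change of at least 0.5 in size was found for 6 cathepsins and for 1 V-ATPase subunit, Atp6v1e1. Markers of fibroblasts moved the same way in these cells, with a sum over 10 genes of 122 to 135 CPM with TGF-β and narciclasine, 329 to 351 with TGF-β and 93.8 to 96.2 in controls. Of 8 tested, 6 fell with narciclasine and 6 rose with TGF-β, and none of the 10 was at 0. Their part in these results was not tested.

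Ctsl, a cysteine endopeptidase, had 413.6, 416.0 and 429.6 CPM with TGF-β and narciclasine, against 766.7, 767.0 and 777.5 with TGF-β and 320.9, 332.1 and 322.0 in control TECs. The 3 groups did not overlap, and the libraries with narciclasine lay between the others. The change was -0.88 (SE 0.024, adjusted p = 1.13e-28) against TGF-β and 0.37 (SE 0.024, adjusted p = 1.4e-16) against control. In the mouse annotation Ctsl spans chr13:64359337-64370890 on the minus strand, and 26.8% of its exon bases lie under an antisense transcript, Gm47123. The sources do not say that strand was used in counting, so reads of both cannot be told apart.

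Ctsc, which removes dipeptides and activates serine proteases of immune granules, had 36.88, 35.93 and 37.58 CPM with TGF-β and narciclasine, 68.93, 69.90 and 70.49 with TGF-β and 63.90, 64.19 and 66.65 in controls. The narciclasine libraries lay below all others, by -0.92 (SE 0.046, adjusted p = 7.82e-20) against TGF-β and -0.82 (SE 0.046, adjusted p = 8.87e-19) against control. Ctsa, a serine carboxypeptidase that shields the sialidase Neu1 in a complex, had 41.22, 42.09 and 44.91 CPM with TGF-β and narciclasine, 58.19, 64.52 and 60.96 with TGF-β and 61.40, 59.38 and 61.53 in controls. It was lower with narciclasine than with TGF-β by -0.52 (SE 0.049, adjusted p = 1.42e-11), and the TGF-β and control libraries overlapped.

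Ctsd, the main aspartic protease of lysosomes, had 1050, 1081 and 1067 CPM with TGF-β and narciclasine, 1308, 1356 and 1295 with TGF-β and 1693, 1703 and 1721 in control TECs. Here both treated groups lay below the controls, and the step from TGF-β alone to TGF-β with narciclasine was -0.31 (SE 0.022, adjusted p = 2.48e-15). Its span of chr7:142375911-142388038 shares 34.4% of exon bases with Gm49369 on the same strand, a gene listed at 7.09 ± 2.23, 11.3 ± 7.88 and 9.495 ± 1.65 CPM (SD, n = 3) in the same order. Ctsz, a carboxypeptidase, had 29.60, 28.42 and 31.52 CPM with TGF-β and narciclasine, 35.95, 37.73 and 37.63 with TGF-β and 53.49, 55.92 and 53.64 in controls. It showed the same order as Ctsd, with a step of -0.31 (SE 0.056, adjusted p = 8.32e-06) between the treated groups.

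Ctso, a cysteine cathepsin, had 14.48, 12.32 and 11.30 CPM with TGF-β and narciclasine, 19.46, 18.68 and 18.79 with TGF-β and 9.79, 11.42 and 8.70 in controls. It fell with narciclasine by 0.57 (SE 0.093, adjusted p = 2.16e-06) on the log2 scale relative to TGF-β, while the narciclasine and control libraries overlapped. Ctsb, Ctsh, Ctsf and Ctsk also fell with narciclasine, by 0.44, 0.47, 0.35 and 1.14 on the log2 scale. The call for Ctsf (adjusted p = 0.0247) was lost without replicate 3 of TGF-β (0.072) or replicate 2 of TGF-β with narciclasine (0.165). Ctsk, the collagen-degrading cathepsin of osteoclasts, averaged only 0.844 ± 0.0762 CPM with TGF-β and narciclasine, 1.86 ± 0.303 with TGF-β and 1.25 ± 0.0961 in controls (SD, n = 3). Ctse, an aspartic protease of endosomes, was the tested cathepsin whose difference did not pass, at -0.65 (SE 0.29, adjusted p = 0.0569).

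**Figure D1:**
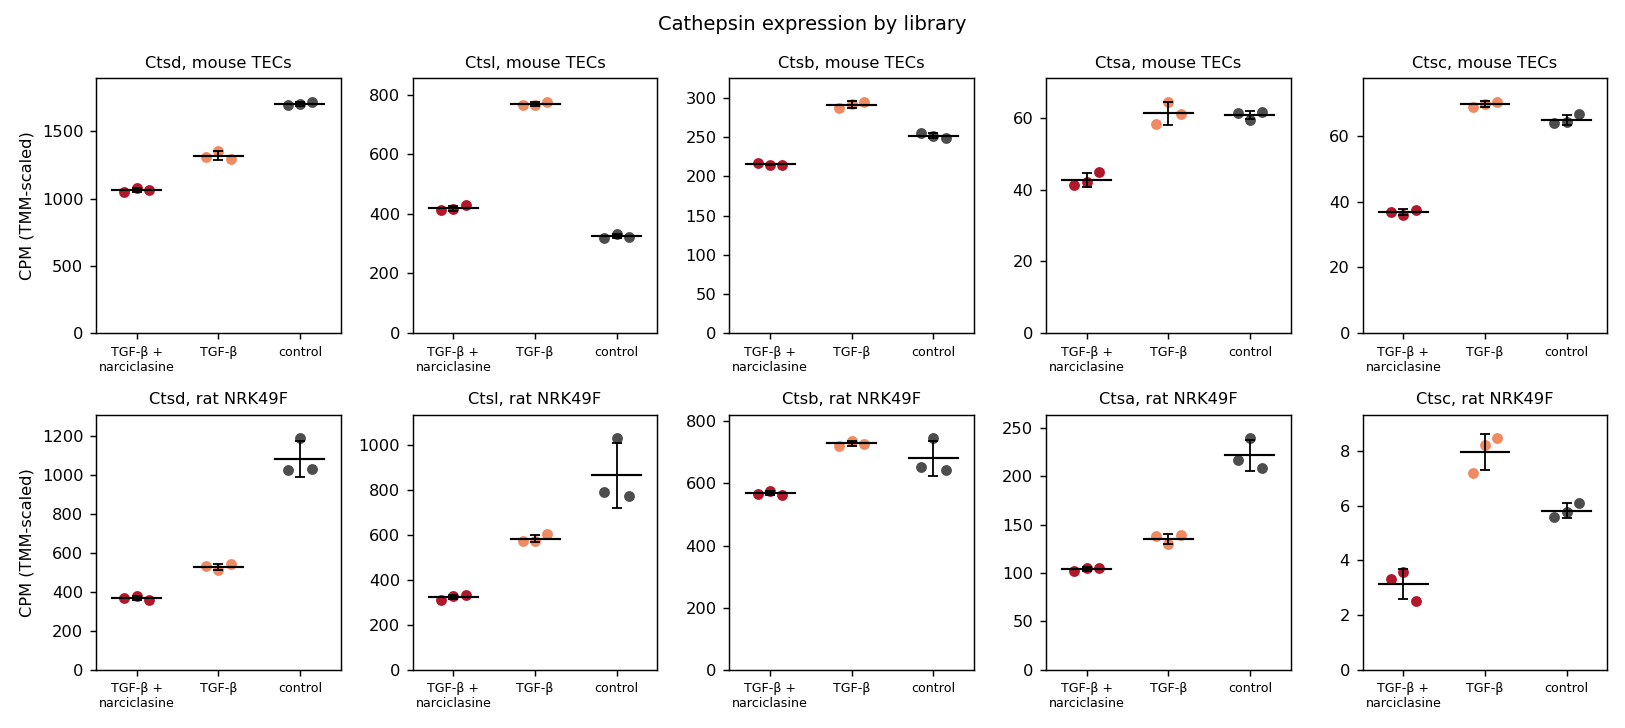
TMM-scaled CPM of 5 cathepsins in every library of mouse TECs (top) and rat NRK49F (bottom); points are libraries, lines are means and bars SD over 3 libraries, and every axis starts at 0. In both cell kinds all 5 are lower with TGF-β and narciclasine than with TGF-β alone, while Ctsl with TGF-β is above control in TECs (770.4 against 325.0) and below it in NRK49F (584.9 against 866.4).

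Ctss, a cysteine protease of antigen-presenting cells, had 26, 12 and 15 counts with TGF-β and narciclasine, 113, 93 and 108 with TGF-β and 39, 32 and 38 in control TECs. In CPM these were 1.16, 0.648 and 0.827, then 5.16, 5.62 and 4.90, then 2.22, 1.203 and 1.82, so the TGF-β libraries lay above all others. The changes were -2.53 (SE 0.23, adjusted p = 3.74e-12) with narciclasine against TGF-β and 1.62 (SE 0.20, adjusted p = 3.85e-09) with TGF-β against control. Markers of macrophages and leukocytes moved the same way as a sum: 18 of them summed to 29.2 to 30.2 CPM with TGF-β and narciclasine, 75.1 to 81.0 with TGF-β and 44.6 to 45 in controls. Single markers went otherwise. In the same order of groups, Ptprc averaged 0.798, 2.41 and 3.13 CPM and Spi1 0.121, 0.48 and 0.913, both highest in controls. Csf1r averaged 12.6, 11.2 and 9.62 CPM, highest with both agents. Of 16 tested, 14 fell and 0 rose with narciclasine, and 12 rose and 1 fell with TGF-β, and among the listed markers only Cd52 was at 0, in the narciclasine group. Their part in the Ctss result was not tested.

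Lysosomal genes are known to carry the site CACGTG, bound by transcription factors of the TFEB family, near their start sites. The letters CACGTG read alike on both strands. They occurred in 9 of the 35 members with a RefSeq promoter window (GRCm38.p6, 250 bases before to 50 after the start): Ctsa, Ctsd, Ctsf, Ctsl, Atp6v0b, Atp6v0d1, Atp6v0e, Atp6v1a and Lamp1. By class this was 4 of 14 cathepsins and 4 of 16 V-ATPase subunits, while 7.15% of all 32851 windows held them. The longer TCACGTGA, which contains CACGTG, occurred in 5 members (Ctsa, Ctsd, Atp6v0d1, Atp6v0e and Atp6v1a) and in 0.974% of all windows. A member was counted if any of its windows held the letters, whereas both percentages count windows. Members with several listed starts have more windows in which to hold them, so these shares cannot be compared directly. The 80 bases around the site are shown for the 7 members in which it lies wholly before the RefSeq start, so that their sequence can be set beside their values. Letters in capitals mark CACGTG.
Ctsa: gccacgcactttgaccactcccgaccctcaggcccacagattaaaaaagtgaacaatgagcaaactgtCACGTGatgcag
Ctsd: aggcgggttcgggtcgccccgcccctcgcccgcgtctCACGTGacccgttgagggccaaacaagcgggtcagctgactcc
Ctsf: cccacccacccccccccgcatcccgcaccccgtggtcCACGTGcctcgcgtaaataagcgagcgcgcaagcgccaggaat
Ctsl: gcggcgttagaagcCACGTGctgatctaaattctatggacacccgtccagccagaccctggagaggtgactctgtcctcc
Atp6v0b: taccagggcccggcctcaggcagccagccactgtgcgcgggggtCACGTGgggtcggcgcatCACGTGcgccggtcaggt
Atp6v1a: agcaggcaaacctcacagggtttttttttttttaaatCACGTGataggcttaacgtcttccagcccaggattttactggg
Lamp1: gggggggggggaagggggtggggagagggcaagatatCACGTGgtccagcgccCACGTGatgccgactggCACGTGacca

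The Ctsa bases are chr2:164833693-164833772 (plus strand, before 1 of its 2 listed starts), those of Ctsd chr7:142387883-142387962 (minus), of Ctsf chr19:4855049-4855128 (plus) and of Ctsl chr13:64370691-64370770 (minus). The Atp6v0b bases are chr4:117887330-117887409 (minus), those of Atp6v1a chr16:44139348-44139427 (minus) and of Lamp1 chr8:13159063-13159142 (plus). The GENCODE spans of Ctsa, Ctsd, Ctsl and Atp6v1a begin further upstream and include these bases, and that of Atp6v0b includes their last few. With narciclasine against TGF-β, these 7 genes changed in TECs by -0.52 (Ctsa), -0.31 (Ctsd), -0.35 (Ctsf), -0.88 (Ctsl), -0.20 (Atp6v0b), -0.26 (Atp6v1a) and -0.30 (Lamp1), and all 7 passed the test. Of the members whose letters do not lie wholly before the start, Atp6v0e fell by 0.42 (SE 0.048, adjusted p = 8.74e-09) on the log2 scale. Atp6v0d1 did not pass, at -0.05 (SE 0.057, adjusted p = 0.485), so not every member with the letters fell. Members without the letters in this window also fell, Ctsc and Atp6v1e1 among them. A match is a description of sequence, not a bound site.

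Against control, TGF-β raised 10 and lowered 2 of the 13 tested cathepsins of TECs, with a median of 0.46 and a range of -0.55 to 2.62. Of all genes 69.0% were called, 34.1% upward and 34.9% downward, with a median of 0.00. Scaling by library totals alone shifted the median gene to -0.14 and the share of calls that were upward to 34.8%, against 49.4% with TMM. The cathepsins were then 8 higher and 3 lower, and Ctsc, at 0.10 (SE 0.043, adjusted p = 0.0294) with TMM, turned to -0.026. That call was also lost without control replicate 1 (0.0869) or 2 (0.0934), or TGF-β replicate 2 (0.0605) or 3 (0.0905). Ctsl rose by 1.25 (SE 0.024, adjusted p = 9.51e-35), Ctso by 0.92 (SE 0.095, adjusted p = 5.42e-11) and Ctse by 2.37 (SE 0.35, adjusted p = 5.21e-07), the last at 1.62 ± 0.564 CPM with TGF-β and narciclasine, 2.496 ± 0.899 with TGF-β and 0.458 ± 0.26 in controls (SD, n = 3). Ctsd and Ctsz fell by 0.37 and 0.55 on the log2 scale.

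Ctsw, a cysteine cathepsin best known from natural killer and cytotoxic T cells, had more counts with TGF-β than in controls in both cell kinds. In TECs it had 52.62, 53.38 and 54.93 CPM with TGF-β and narciclasine, 63.31, 64.40 and 61.96 with TGF-β and 10.24, 10.82 and 9.61 in controls. Both treated groups lay well above control, by 2.38 (SE 0.062, adjusted p = 2.74e-30) and 2.62 (SE 0.060, adjusted p = 3.05e-32), and narciclasine lowered it by only -0.24 (SE 0.047, adjusted p = 5.07e-05) relative to TGF-β. The gene lies at chr19:5465043-5468507 on the minus strand. It shares 0.477% of its exon bases with Fibp on the other strand, which averaged 12.4 ± 1.46, 16.1 ± 0.803 and 13.3 ± 0.306 CPM (SD, n = 3) in the same order.

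In NRK49F, Ctsw had 11, 9 and 9 counts with TGF-β and narciclasine, 294, 261 and 271 with TGF-β and 1, 0 and 2 in controls. It passed the filter only through the TGF-β group. Summed over libraries and scaled for depth, TGF-β over control was 311 (95% counting interval 106 to 1509, for 826 against 3 counts). TGF-β with narciclasine over TGF-β was 0.0300 (interval 0.0199 to 0.0434), and TGF-β with narciclasine over control was 9.31 (interval 2.89 to 47.8, for 29 against 3 counts). These intervals cover counting error only. Rat Fibp and Efemp2, whose mouse counterparts flank Ctsw, stood in the same order of groups at 54.0 ± 2.73, 53.8 ± 1.30 and 53.4 ± 4.63 CPM and at 247 ± 6.30, 368 ± 13.3 and 281 ± 24.0 CPM (SD, n = 3). Neither had the steep course of Ctsw.

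**Figure D2:**
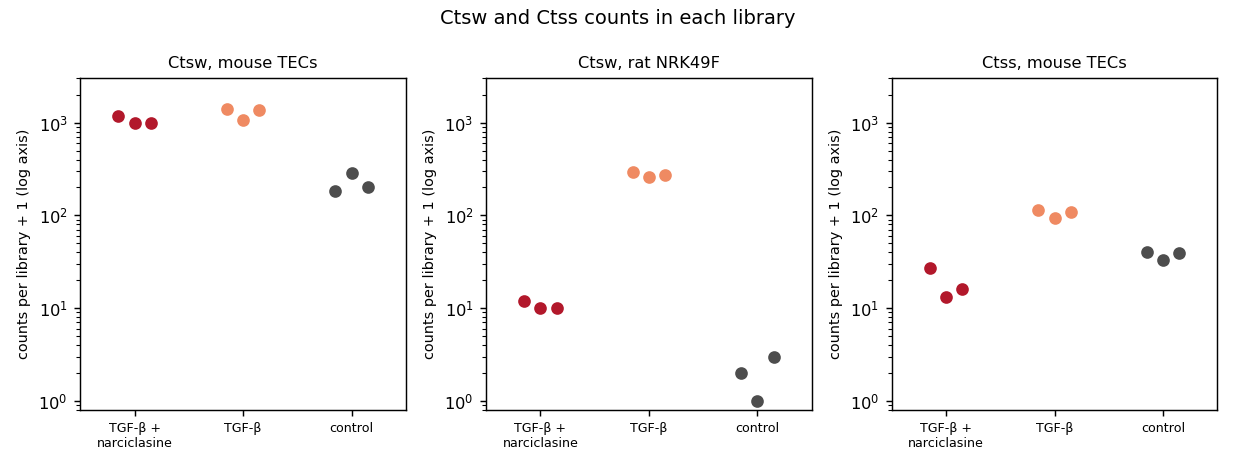
Counts plus 1, on a log axis, of Ctsw in TECs, Ctsw in NRK49F and Ctss in TECs; each point is 1 library. Ctsw with narciclasine stays near its TGF-β level in TECs (988 to 1177 counts against 1065 to 1386) and is far below it in NRK49F (9 to 11 against 261 to 294).

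Because rat Ctsw reached the filter on low counts only in TGF-β libraries, it is left out of the following counts. In NRK49F, narciclasine added to TGF-β lowered 6 of the 7 other tested cathepsins and raised 0, with a median of -0.53. Of all 11444 genes 62.7% were called, 31.6% upward and 31.1% downward, with a median of 0.00. Among 17 tested V-ATPase subunits 7 were lower and 2 higher, with a median of -0.12 and a range of -1.14 to 1.26, and by library totals 6 were lower and 4 higher. Markers of macrophages and leukocytes summed to 90.5 to 96.8 CPM with TGF-β and narciclasine, 159 to 175 with TGF-β and 107 to 151 in controls. Of the 3 tested, Cd74 (-1.54) and Itgax (-0.73) fell with narciclasine, while Spi1 and Cd52 were at 0 in every group. Proximal tubule markers summed to 5.64 to 7.23, 22.2 to 23.0 and 30.0 to 79.2 CPM in the same order of groups, with 4 to 6 of 12 at 0. The part of these markers in the results was not tested. Ctsh, an aminopeptidase, was the cathepsin that did not pass, with 134.1, 132.5 and 127.8 CPM with TGF-β and narciclasine, 131.4, 138.2 and 131.3 with TGF-β and 102.9, 153.2 and 114.0 in controls. The high control value was replicate 2.

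Ctsl in NRK49F had 312.7, 326.6 and 331.9 CPM with TGF-β and narciclasine, 575.0, 575.3 and 604.4 with TGF-β and 793.9, 1032 and 772.7 in controls. Its groups did not overlap and fell in steps, by -0.85 (SE 0.092, adjusted p = 4.73e-06) for narciclasine against TGF-β and by -0.57 (SE 0.092, adjusted p = 0.000112) for TGF-β against control. Without replicate 2 of every group the second step was -0.42 (adjusted p = 2.69e-14). Ctsd had 365.7, 376.8 and 357.7 CPM with TGF-β and narciclasine, 530.3, 513.2 and 544.0 with TGF-β and 1026, 1187 and 1030 in controls. Its steps were -0.53 (SE 0.062, adjusted p = 3.03e-06) and -1.03 (SE 0.062, adjusted p = 1.18e-09), and the second was -0.94 without replicate 2 of every group.

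Ctsf, a cysteine cathepsin, had 41.83, 43.68 and 43.85 CPM with TGF-β and narciclasine, 72.37, 82.37 and 80.88 with TGF-β and 98.52, 139.8 and 104.4 in control NRK49F. Ctsa had 102.0, 104.9 and 105.0 CPM with TGF-β and narciclasine, 137.7, 129.6 and 139.2 with TGF-β and 216.4, 239.1 and 208.5 in controls. Both showed the same descending order as Ctsd without overlap, at -0.86 (SE 0.12, adjusted p = 8.05e-05) and -0.38 (SE 0.060, adjusted p = 5.56e-05) for narciclasine against TGF-β. Ctsc, low in this line, had 3.31, 3.59 and 2.52 CPM with TGF-β and narciclasine, 7.21, 8.22 and 8.47 with TGF-β and 5.58, 5.76 and 6.11 in controls. It fell with narciclasine by 1.33 (SE 0.17, adjusted p = 8.93e-06) on the log2 scale, and its rise with TGF-β, 0.45 (SE 0.17, adjusted p = 0.0231), did not pass without replicate 2 of every group (adjusted p = 0.0622), nor without control replicate 1 (0.067), TGF-β replicate 2 (0.0551) or TGF-β replicate 3 (0.0712).

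TGF-β against control in NRK49F raised 1 (Ctsc) and lowered 4 of the 7 tested cathepsins other than Ctsw, with a median of -0.54. Of all genes 71.8% were called, 33.7% upward and 38.0% downward, with a median of -0.05. Scaling by library totals moved that median to -0.24 and the upward share of calls to 35.0%, against 47.0% with TMM. With Ctsw counted, 2 cathepsins higher and 4 lower became 1 and 4 by library totals, and 4 and 4 without control replicate 2. Those lowered with TMM were Ctsd, Ctsa, Ctsl and Ctsf. Ctsb, a cysteine protease with both endopeptidase and carboxypeptidase activity, did not pass at 0.10 (SE 0.059, adjusted p = 0.15), and fell with narciclasine against TGF-β by 0.36 (SE 0.059, adjusted p = 7.9e-05) on the log2 scale.

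**Figure D3:**
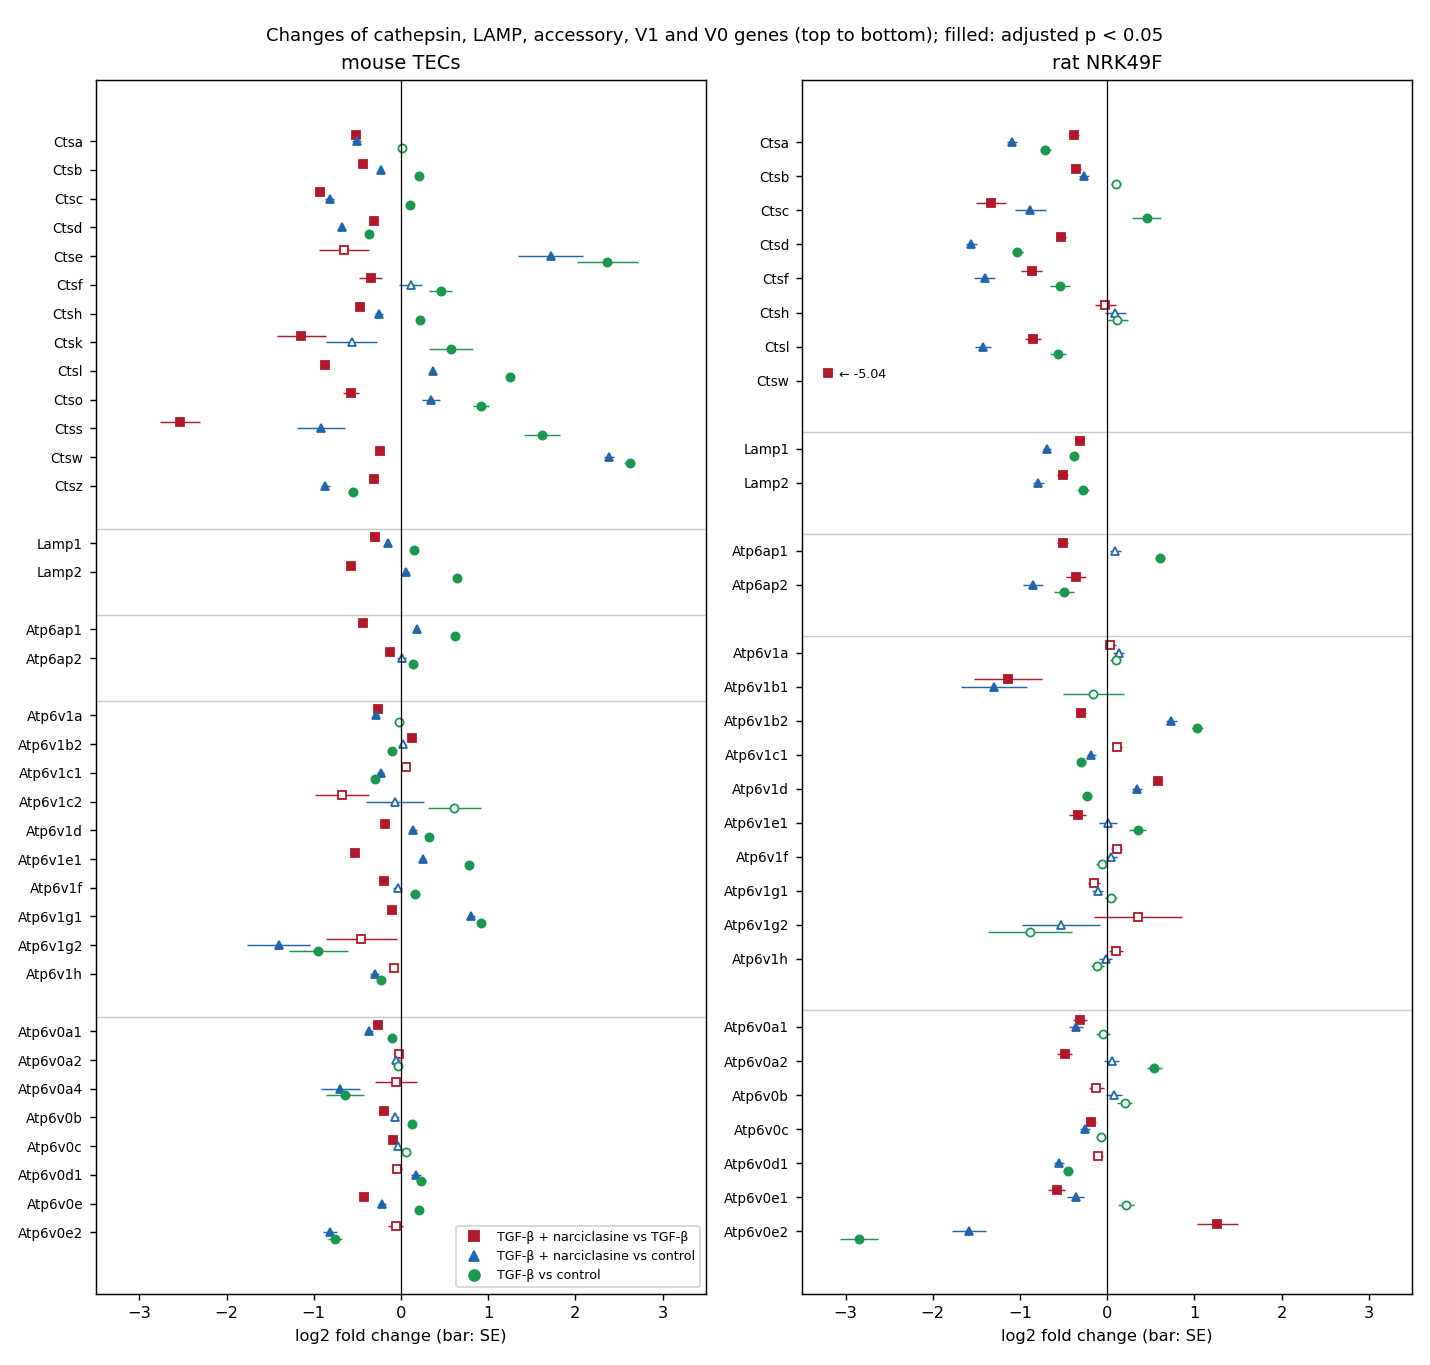
log2 fold changes of all tested members with SE, for TECs (left) and NRK49F (right), in blocks for cathepsins, LAMP genes, accessory subunits, V1 and V0; filled symbols passed at an adjusted p under 0.05, and rat Ctsw is drawn only for narciclasine against TGF-β, at the edge. Squares (narciclasine against TGF-β) lie left of 0 for all 13 tested cathepsins in TECs and all 8 in NRK49F, where Ctsh did not pass and Ctsw was tested through the TGF-β group alone, and scatter nearer to 0 for most V1 and V0 genes.

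Cells given both agents were also compared with controls. In TECs, 4 cathepsins were higher and 7 lower than in controls, with a median of -0.25. Of all genes 63.0% were called, 32.4% upward and 30.6% downward, with a median of 0.00. The higher ones were Ctsw, Ctse, Ctsl and Ctso, the last not called without replicate 1 of TGF-β with narciclasine (adjusted p = 0.0855). In NRK49F, 0 of the 7 cathepsins other than Ctsw were higher and 6 were lower, with a median of -1.09. In TECs Ctsb, Ctsh and Ctss were above control with TGF-β and below it with both agents, and in NRK49F Ctsd, Ctsl and Ctsf lay further below control with both agents than with TGF-β. Of all genes there 66.8% were called, 33.4% upward and 33.4% downward, with a median of -0.01. By library totals the upward share of calls was 36.9% against 51.5% with TMM in TECs and 40.0% against 50% in NRK49F. The largest falls in NRK49F among cathepsins were -1.56 (SE 0.063, adjusted p = 1.72e-11) for Ctsd, -1.42 (SE 0.093, adjusted p = 3.07e-08) for Ctsl and -1.41 (SE 0.12, adjusted p = 1.08e-06) for Ctsf. Of the V-ATPase subunits, 4 of 18 tested were higher and 8 lower than in control TECs, with a median of -0.07. In NRK49F 2 of 17 were higher and 7 lower, with a median of -0.11. By library totals these were 2 higher and 12 lower in TECs and 2 and 8 in NRK49F.

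V-ATPase subunits went both ways with TGF-β, as genes at large did. Of all genes 34.1% rose and 34.9% fell in TECs. In TECs 7 rose and 7 fell of 18 tested, with a median of 0.02, and by library totals 3 were higher and 10 lower. Atp6v1g1 and Atp6v1e1, which together form the outer stalks of V1, rose most. Atp6v1g1 had 169.2, 160.6 and 170.3 CPM with TGF-β and narciclasine, 175.7, 173.5 and 189.1 with TGF-β and 98.33, 94.63 and 92.94 in controls. Both treated groups lay apart from control, at 0.81 (SE 0.036, adjusted p = 2.62e-22) and 0.92 (SE 0.036, adjusted p = 2.14e-24).

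Atp6v1e1 in TECs had 115.1, 116.0 and 110.3 CPM with TGF-β and narciclasine, 162.4, 159.8 and 168.3 with TGF-β and 92.47, 99.21 and 93.71 in controls. It was the V-ATPase subunit with the largest called fall with narciclasine, -0.52 (SE 0.035, adjusted p = 4.12e-16), after a rise of 0.78 (SE 0.035, adjusted p = 2.85e-22) with TGF-β. Atp6v0e2, a small membrane subunit, had 12.70, 12.86 and 13.06 CPM with TGF-β and narciclasine, 12.88, 14.87 and 12.75 with TGF-β and 22.25, 22.70 and 22.95 in controls. Both treated groups overlapped each other and lay below control, with -0.75 (SE 0.076, adjusted p = 2.04e-11) for TGF-β against control.

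Atp6v0c, the proton-carrying ring subunit with the most V-ATPase counts, had 201.0, 207.0 and 203.4 CPM with TGF-β and narciclasine, 214.9, 226.1 and 210.1 with TGF-β and 211.8, 205.9 and 209.5 in control TECs. Its range over the groups was narrow and the TGF-β and control libraries overlapped. The change with narciclasine was -0.09 (SE 0.030, adjusted p = 0.0107) and did not pass by library totals (adjusted p = 0.0893) or without TGF-β replicate 2 (0.0576). The catalytic subunit Atp6v1a fell by 0.26 (SE 0.031, adjusted p = 2.35e-09) on the log2 scale with narciclasine against TGF-β. Atp6v1b2, the B subunit of most tissues, was the single one that rose, by 0.13 (SE 0.035, adjusted p = 0.00179).

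In NRK49F, TGF-β raised 33.7% and lowered 38.0% of all genes. Of 17 tested subunits it raised 3 and lowered 4, with a median of -0.07, and by library totals 2 were higher and 8 lower. Without control replicate 2 alone, 6 were higher and 4 lower, as without replicate 2 of every group. Atp6v1b2 had 105.0, 109.3 and 105.8 CPM with TGF-β and narciclasine, 122.4, 141.4 and 130.9 with TGF-β and 61.70, 66.07 and 64.82 in controls. The groups did not overlap, and the rise with TGF-β was 1.03 (SE 0.063, adjusted p = 1.31e-09). Atp6v0e2 had 3.83, 3.53 and 3.97 CPM with TGF-β and narciclasine, 1.90, 1.66 and 1.13 with TGF-β and 11.99, 8.73 and 13.20 in controls. It had the largest V-ATPase fall with TGF-β, -2.84 (SE 0.22, adjusted p = 2.16e-08), and rose with narciclasine against TGF-β by 1.26 (SE 0.24, adjusted p = 0.000282).

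Atp6v1d, part of the central rotor, had 129.2, 130.1 and 132.5 CPM with TGF-β and narciclasine, 89.54, 82.66 and 90.05 with TGF-β and 103.3, 105.4 and 99.83 in control NRK49F. It was higher with narciclasine than in either other group, by 0.58 (SE 0.055, adjusted p = 3.79e-07) and 0.34 (SE 0.055, adjusted p = 5.18e-05). Atp6v0d1, which joins the rotor to the membrane ring, had 103.6, 96.54 and 94.71 CPM with TGF-β and narciclasine, 109.5, 106.1 and 101.1 with TGF-β and 145.9, 144.9 and 140.8 in controls. Both treated groups lay below control, and the difference between them did not pass, at -0.10 (SE 0.057, adjusted p = 0.129).

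Atp6v0a2, which anchors V0 in Golgi and endosome membranes, had 41.19, 38.63 and 34.04 CPM with TGF-β and narciclasine, 50.87, 57.43 and 51.73 with TGF-β and 38.44, 34.24 and 37.15 in control NRK49F. It stood highest with TGF-β, and fell by 0.49 (SE 0.084, adjusted p = 0.000123) on the log2 scale with narciclasine. Atp6v0e1 had 27.42, 27.11 and 27.29 CPM with TGF-β and narciclasine, 39.59, 37.98 and 44.60 with TGF-β and 30.10, 39.30 and 35.74 in controls. Its libraries with narciclasine lay below the rest, by -0.58 (SE 0.097, adjusted p = 0.000101) against TGF-β. Atp6v0c had 174.1, 170.7 and 166.8 CPM with TGF-β and narciclasine, 198.6, 191.0 and 192.0 with TGF-β and 201.5, 216.6 and 191.4 in controls, with a fall of 0.19 (SE 0.055, adjusted p = 0.00896) on the log2 scale between the treated groups that library totals did not keep (adjusted p = 0.0822).

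The accessory subunits, which help assemble the pump, fell with narciclasine in both cell kinds. Atp6ap1 averaged 193 ± 2.62 CPM with TGF-β and narciclasine, 261 ± 3.99 with TGF-β and 170 ± 3.42 in control TECs, and 121 ± 2.05, 172 ± 5.95 and 113 ± 8.77 CPM in NRK49F (SD, n = 3). Its changes with narciclasine against TGF-β were -0.43 (SE 0.028, adjusted p = 2.49e-16) and -0.51 (SE 0.060, adjusted p = 3.34e-06). Atp6ap2, also known as the prorenin receptor, changed by -0.13 (adjusted p = 0.0287) in TECs and -0.36 (adjusted p = 0.0195) in NRK49F. Its call in TECs was lost without TGF-β replicate 3 (0.157) or replicate 2 of both agents (0.0912). In NRK49F it was lost without TGF-β replicate 2 (0.0635) or replicate 1 (0.0672) or 3 (0.0652) of both agents.

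Lamp1 and Lamp2, the main glycoproteins of the lysosomal membrane, also fell with narciclasine in both cell kinds. Lamp2 had 263.5, 261.1 and 260.5 CPM with TGF-β and narciclasine, 390.0, 386.4 and 391.9 with TGF-β and 249.4, 250.4 and 251.5 in control TECs, so the groups did not overlap. In NRK49F it had 135.8, 144.0 and 131.3, then 194.1, 205.9 and 186.5, then 230.6, 258.0 and 221.8 CPM in the same order. Its changes with narciclasine against TGF-β were -0.57 (SE 0.025, adjusted p = 8.68e-22) in TECs and -0.51 (SE 0.065, adjusted p = 7.24e-06) in NRK49F.

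Lamp1 had 488.8, 515.0 and 503.3 CPM with TGF-β and narciclasine, 622.7, 637.0 and 599.7 with TGF-β and 548.3, 548.1 and 577.4 in control TECs. In NRK49F it had 202.6, 203.1 and 194.7, then 250.7, 251.1 and 246.1, then 328.1, 323.0 and 319.5 CPM. The libraries with narciclasine were the lowest in both cell kinds, by -0.30 (SE 0.026, adjusted p = 1.27e-12) and -0.32 (SE 0.047, adjusted p = 3.29e-05) against TGF-β. Lamp1 with TGF-β was above control in TECs, 0.15 (SE 0.026, adjusted p = 2.85e-06), which did not pass by library totals (adjusted p = 0.467).

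Summed over the class, cathepsins made 1927, 1952 and 1962 CPM with TGF-β and narciclasine, 2709, 2773 and 2719 with TGF-β and 2551, 2567 and 2575 in control TECs. V-ATPase subunits summed to 1331, 1366 and 1346, then 1501, 1512 and 1512, then 1361, 1352 and 1346 CPM. Cathepsin reads per V-ATPase read were therefore 1.45 ± 0.0149 with both agents, 1.81 ± 0.019 with TGF-β and 1.90 ± 0.0197 in controls (SD, n = 3), and the 3 groups did not overlap. Ctsd made up 54.8%, 48.3% and 66.5% of cathepsin counts in these groups. Without Ctsd the ratio was 0.654, 0.937 and 0.635, so that TGF-β stood above control in place of below it. The group with both agents was then no longer the lowest. Its libraries, at 0.659, 0.637 and 0.665, overlapped the controls, at 0.631, 0.639 and 0.635.

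In NRK49F the same ratio was 1.23, 1.25 and 1.23 with TGF-β and narciclasine, 1.68, 1.68 and 1.71 with TGF-β and 2.31, 2.59 and 2.29 in controls. The groups did not overlap, and the control libraries were the highest. Their mean was 2.40 ± 0.169 (SD, n = 3), or 2.30 without replicate 2. V-ATPase sums stayed close, at 1244 ± 3.06, 1312 ± 7.77 and 1289 ± 54.9 CPM, while cathepsin sums were 1541 ± 20.0, 2218 ± 32.5 and 3094 ± 354 CPM (SD, n = 3). The 2 parts of the V-ATPase sum did not move alike. V0 genes summed to 418.8 ± 9.33, 490.3 ± 3.97 and 522.1 ± 9.1 CPM in the same order of groups. V1 genes summed to 825.1 ± 10.0, 821.9 ± 11.4 and 767.0 ± 49.0 CPM (SD, n = 3). These sums weigh abundant and long genes most and carry no test.

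**Figure D4:**
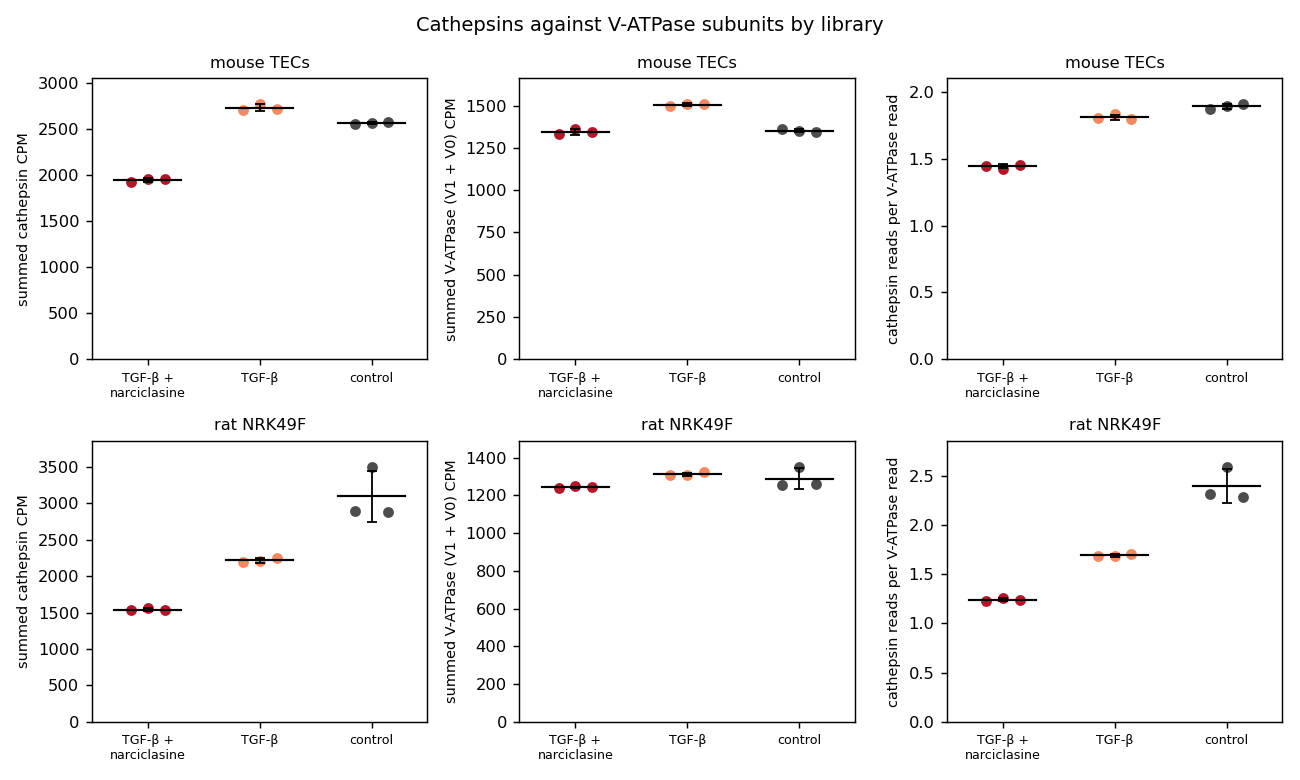
Summed cathepsin CPM, summed V1 and V0 subunit CPM and their ratio in every library of TECs (top) and NRK49F (bottom); points are libraries, lines means and bars SD over 3 libraries, with axes from 0. The ratio is lowest with TGF-β and narciclasine in both cell kinds, 1.45 in TECs and 1.24 in NRK49F. In TECs this depends on Ctsd: without it the ratio (not drawn) is 0.654 with both agents and 0.635 in controls, with overlapping libraries.

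The responses of the 2 cell kinds were compared directly, as the TEC minus the NRK49F log2 change in a fit of 12232 genes matched by symbol. Mouse Atp6v0e and rat Atp6v0e1 have different symbols and were not compared. With narciclasine against TGF-β, Atp6v0e changed by -0.42 in TECs and Atp6v0e1 by -0.58 in NRK49F. For TGF-β against control, 16 of 26 members tested in both cell kinds other than Ctsw differed, 13 with the higher change in TECs and 3 with the higher change in NRK49F. Of all matched genes 61.8% differed, 32.8% with the higher change in TECs and 29.0% in NRK49F. Ctsl differed by 1.82 (SE 0.10, adjusted p = 6.29e-12), having risen in TECs and fallen in NRK49F. Ctsf by 1.00 (SE 0.20, adjusted p = 0.000145), Lamp2 by 0.92 (SE 0.068, adjusted p = 1.9e-12) and Lamp1 by 0.53 (SE 0.055, adjusted p = 1.67e-09) showed the same pattern. Among V-ATPase subunits 8 of 15 differed, led by Atp6v0e2 at 2.102 (SE 0.22, adjusted p = 1.71e-09) and Atp6v1b2 at -1.13 (SE 0.070, adjusted p = 3.28e-14).

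For narciclasine added to TGF-β, 10 of these 26 members differed between the cell kinds, 5 in each direction. Of all matched genes 47.5% differed, 23.2% with the higher change in TECs and 24.3% in NRK49F. The difference did not pass for Ctsl, at -0.04 (SE 0.10, adjusted p = 0.832), for Ctsa, at -0.15 (SE 0.077, adjusted p = 0.115), for Ctsb, at -0.09 (SE 0.062, adjusted p = 0.229), for Lamp1, at 0.00 (SE 0.056, adjusted p = 1.0), or for Lamp2, at -0.08 (SE 0.069, adjusted p = 0.391). Atp6v1d, which fell in TECs and rose in NRK49F, differed by -0.78 (SE 0.069, adjusted p = 3.33e-10).

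**Figure D5:**
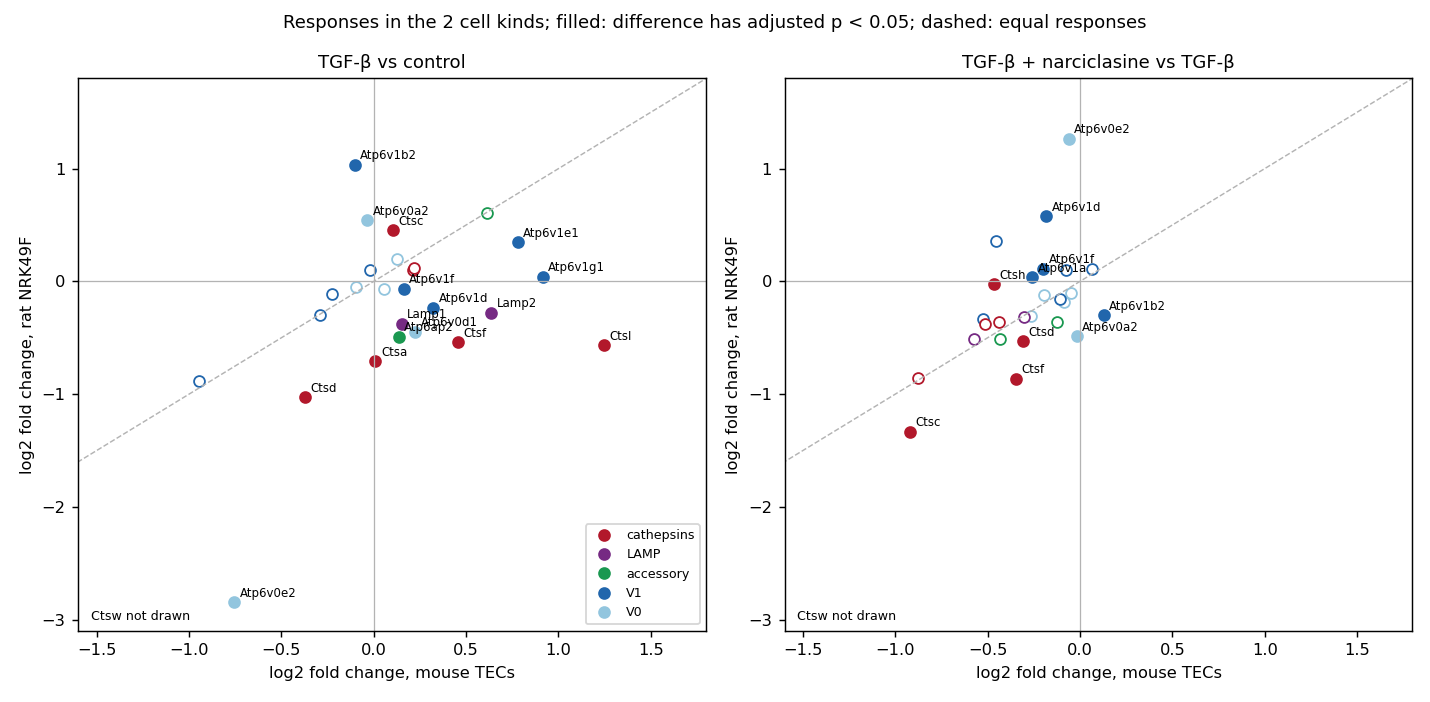
log2 fold change in NRK49F against that in TECs for members tested in both, for TGF-β against control (left) and narciclasine added to TGF-β (right); colours mark classes, filled and named points differed between cell kinds at an adjusted p under 0.05, and the dashed line marks equal responses. Ctsl lies far below the line on the left (1.25 in TECs, -0.57 in NRK49F) and near it, unfilled, on the right (-0.88 and -0.85).

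Other genes of the lysosome were read from lists chosen by function. Of all genes, narciclasine against TGF-β gave 26.8% higher and 25.5% lower in TECs and 31.6% higher and 31.1% lower in NRK49F. TGF-β against control gave 34.1% higher and 34.9% lower in TECs and 33.7% higher and 38.0% lower in NRK49F. Of 38 tested mouse hydrolases, 29 fell and 1 rose with narciclasine against TGF-β, with a median of -0.32, and of 36 tested rat hydrolases 28 fell and 0 rose, with a median of -0.53. TGF-β against control gave 14 higher and 11 lower in TECs (median 0.08) and 10 higher and 20 lower in NRK49F (median -0.26). Neu1, the sialidase held in complex with Ctsa, averaged 34.7 CPM with TGF-β and narciclasine, 54.7 with TGF-β and 57.8 in control TECs, and 67.6, 319 and 13.7 CPM in NRK49F. In NRK49F it rose with TGF-β by 4.54 (SE 0.093, adjusted p = 1.21e-14) and fell with narciclasine by 2.24 (SE 0.079, adjusted p = 2.31e-11) on the log2 scale, whereas Ctsa was lowered by both.

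Of 26 tested lysosomal membrane proteins and transporters in TECs, 15 fell and 1 rose with narciclasine against TGF-β (median -0.18). In NRK49F 11 fell and 3 rose of 23 (median -0.17), and those that rose included the calcium channel Mcoln1, at 0.96 (SE 0.068, adjusted p = 1.96e-08). The list of mannose 6-phosphate sorting, the route that delivers cathepsins to lysosomes, gave 6 higher and 4 lower of 14 in TECs (median -0.01) and 2 higher and 7 lower of 13 in NRK49F (median -0.24). Gnptab, which makes the sorting tag, fell in NRK49F by 0.83 (SE 0.073, adjusted p = 1.45e-07) on the log2 scale. V-ATPase assembly and regulation gave 3 higher and 4 lower of 22 in TECs (median -0.02) and 4 higher and 7 lower of 22 in NRK49F (median -0.11).

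Inhibitors of cathepsins gave 0 higher and 5 lower of 9 tested in TECs with narciclasine against TGF-β (median -0.19) and 1 higher and 2 lower of 5 in NRK49F (median -0.21). Cst3, the secreted inhibitor cystatin C, averaged 102 CPM with TGF-β and narciclasine, 84.4 with TGF-β and 394 in control NRK49F, with -2.22 (SE 0.13, adjusted p = 1.17e-07) for TGF-β against control. TFEB and its regulators gave 4 higher and 5 lower of 20 in TECs with narciclasine against TGF-β (median -0.03) and 5 higher and 3 lower of 18 in NRK49F (median 0.00). With TGF-β against control, 13 of the 18 fell and 3 rose in NRK49F (median -0.68), where 71.8% of all genes were called and 38.0% were lower, and 9 fell and 8 rose of 20 in TECs (median 0.01). Flcn, a regulator of the family's entry into the nucleus, fell in NRK49F by 1.37 (SE 0.11, adjusted p = 2.58e-08) on the log2 scale with TGF-β.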

How the data were processed

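RNA-seq of 18 libraries, 3 in each of 6 groups, was used. The authors' deposited values are raw counts per gene, in 1 table per cell kind with 22322 mouse and 22050 rat genes. Per the submitters' processing notes, HISAT2 2.1.0, featureCounts and DESeq2 were used and the build was mm10. The rat build and the strand setting were not given in the sources used here. Per the labels' protocols, libraries were made from poly(A) RNA with NEBNext Ultra.

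Genes were kept with filterByExpr, scaled by TMM and tested with edgeR 4.0.16 (R 4.3.3), using the robust quasi-likelihood test over the 9 libraries of a cell kind and Benjamini-Hochberg adjustment over all genes tested. A gene was called at an adjusted p under 0.05. The difference between cell kinds was an interaction term over all 18 libraries. The scripts were tested on simulated data. Positions and exon lengths are GENCODE vM21 (GRCm38), and promoters are RefSeq.

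Values in every library are given for members with at least 5 CPM in a group, a called change of at least 0.5 (log2), at most 8 per class and cell kind, for Lamp1 and Lamp2, and for the cathepsin and V-ATPase subunit with the most counts; other lists give at most 4 genes per comparison. Ctsb, Ctse, Ctsk, Ctsh and further members outside this rule were named after their values were seen. The members and lists were chosen with earlier results of these data known. Alternatives were RLE factors, library totals, no filter, DESeq2 1.42.0, a fit of 2 groups, a replicate block, entries of a symbol summed, and libraries left out.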

Additional observations from a re-analysis of the deposited data

Results flagged for a closer look

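Members are given here because their response differed between TECs and NRK49F by the interaction term of edgeR's quasi-likelihood test, adjusted over 12232 matched genes. Values are the TEC minus the NRK49F log2 change, so a positive one means the higher change in TECs. For TGF-β against control, the cathepsin differences were 1.82 for Ctsl, 1.00 for Ctsf, 0.72 for Ctsa, 0.67 for Ctsd, -0.34 for Ctsc and -5.50 for Ctsw. The value for Ctsw rests on 3 counts over the rat controls and depends on the prior count of the fit, so it is no bound and is given as a description. Lamp1 and Lamp2 differed by 0.53 and 0.92, and Atp6ap2 by 0.63. Of the V1 genes, Atp6v1b2 differed by -1.13, Atp6v1d by 0.56, Atp6v1e1 by 0.44, Atp6v1f by 0.23 and Atp6v1g1 by 0.88. Of the V0 genes, Atp6v0a2 differed by -0.57, Atp6v0d1 by 0.68 and Atp6v0e2 by 2.102.

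For narciclasine added to TGF-β, Ctsw differed by 4.79, a value given as a description since rat Ctsw was tested only through its TGF-β libraries. In the same comparison the differences were 0.50 for Ctsf, 0.39 for Ctsc, 0.21 for Ctsd and -0.46 for Ctsh. The V-ATPase subunits that differed were Atp6v0a2 at 0.46, Atp6v0e2 at -1.34, Atp6v1a at -0.31, Atp6v1b2 at 0.42, Atp6v1d at -0.78 and Atp6v1f at -0.33. The calls for Ctsf and Ctsc here, and for Ctsc with TGF-β, were lost when single libraries were left out, with adjusted p up to 0.132, 0.16 and 0.0621. The call for Atp6v1f with TGF-β was lost without replicate 2 of every NRK49F group (0.15, adjusted p = 0.0939). Each of these is a difference between species as much as between cell kinds, which cannot be told apart here.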

How the results depend on the processing

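Counts of genes, cathepsins and V-ATPase subunits called in either direction stayed within 1.5 times their main values in every alternative run, but counts by direction moved further. With TGF-β against control, V-ATPase subunits raised and lowered were 3 and 10 by library totals and 7 and 4 by DESeq2 in TECs (7 and 7 in the main test). In NRK49F they were 2 and 8 by library totals, 5 and 4 by DESeq2 or RLE factors and 6 and 4 without control replicate 2 (3 and 4 in the main test). Called results of single members numbered 166, counting changes within a cell kind and differences between cell kinds. Of these, 138 stayed called in the same direction under every alternative, and 28 lost the call or turned under at least 1. Rat Ctsw, which passed the filter only through its TGF-β libraries, is included in the 166, in the 138 and in the cathepsin counts above. Its part in them is a description only. Without Ctsd, the cathepsin to V-ATPase ratio moved to 0.654 (TGF-β and narciclasine), 0.937 (TGF-β) and 0.635 (control) in TECs and to 0.944, 1.29 and 1.56 in NRK49F. By library totals, which moved the median gene down, 6 results turned: with TGF-β against control in TECs, Ctsa to -0.12, Ctsc to -0.026 and Atp6v0b to -0.0045; with both agents against control, Lamp2 to -0.036 in TECs, and Atp6v0a2 to -0.062 and Atp6ap1 to -0.022 in NRK49F. Uncalled Ctsa in TECs (0.01 with TGF-β) also turned when libraries were left out, with a range of -0.030 to 0.042 over single libraries and -0.050 without replicate 2 of every group. Uncalled Atp6v0a2 in NRK49F (0.05 with both agents against control) ranged from -0.0067 to 0.13 over single libraries left out, and came to -0.0024 without replicate 2 of every group. The cause was not tested.

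Calls that hung on single libraries included Atp6ap2 with narciclasine (adjusted p up to 0.157 in TECs and 0.0672 in NRK49F), Ctsf with narciclasine in TECs (up to 0.165), Ctsk with TGF-β in TECs (up to 0.17) and Ctsc with TGF-β in NRK49F (up to 0.0712). Same-numbered libraries did not deviate together (correlations of -0.108 to 0.14), so the numbers were not taken to pair them. With a replicate block, 9027, 6766 and 8233 genes were called in TECs and 8169, 7167 and 7624 in NRK49F (TGF-β against control, narciclasine against TGF-β, both against control). In TECs 11, 12 and 11 cathepsins and 14, 10 and 12 subunits were called. In NRK49F these were 6, 7 and 7 cathepsins, Ctsw included, and 8, 9 and 10 subunits. Between cell kinds 17 and 11 members, Ctsw again included, differed for TGF-β against control and for narciclasine against TGF-β. Members with at most 11 counts in every library were not tested at this depth.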
